A study of Homo sapiens with 9 samples.

Results

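Tissue factor and the genes of plasminogen activation were followed across 3 related human glioblastoma lines by RNA-seq. The members, F3, TFPI, TFPI2, THBD, PLAU, PLAT, PLAUR and SERPINE2, are 8 of the 60606 genes in the table. They were chosen by symbol, with earlier results of these data known. All 8 had a mean over 1 TPM (transcripts of a gene out of 1000000, a level corrected for gene length and library total) and were tested. U87 is an established glioblastoma line, measured untreated in serum medium. GSCs are stem cells derived from U87, kept in serum-free neural stem cell medium with EGF and bFGF and irradiated repeatedly to select radioresistant cells. Diff are cells obtained from these irradiated GSCs by culture in serum medium, grown on from selected colonies. Each line had 3 libraries. There was no group of unirradiated GSCs, so the effects of irradiation, of medium and of cell state cannot be told apart. The labels do not say that the replicates were separate cultures, so the p-values measure only the spread between these libraries.

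Tissue factor, encoded by F3, is the membrane receptor for factor VII and starts blood coagulation when it meets plasma. TFPI blocks that complex, and thrombomodulin (THBD) turns thrombin from a clotting enzyme into an activator of protein C. Plasminogen activators cut plasminogen to plasmin, which dissolves fibrin and degrades matrix, and serpins hold them in check. Glioblastoma is known for tissue factor production and for use of the urokinase system in invasion.

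F3 fell at each step from U87 to GSCs to Diff. Its inhibitor TFPI and the related TFPI2 moved apart from one another, TFPI falling from U87 to Diff and TFPI2 peaking in GSCs. THBD rose from close to 1 TPM in U87 to higher levels in both irradiated lines. Among the plasminogen activators, the tissue-type PLAT fell in both irradiated lines, and the urokinase PLAU was called higher in Diff against U87. The urokinase receptor PLAUR was not called in any comparison, and the protease inhibitor SERPINE2 was highest in GSCs. A gene was called when its limma adjusted p was under 0.05 and its absolute log2 fold change, on the log2(TPM + 1) scale, was over 1.

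In GSCs against U87, 3 of the 8 members were called higher (SERPINE2, TFPI2 and THBD) and 2 lower (F3 and PLAT). Of all 22909 genes tested, 9.52% were called higher and 7.53% lower. By adjusted p alone 7 of the 8 members passed, against 48.6% of all genes. In Diff against U87, 2 members were called higher (PLAU and THBD) and 3 lower (F3, PLAT and TFPI), beside 5.92% and 6.36% of all genes, and 7 passed by adjusted p alone, beside 39.4%. In Diff against GSCs no member was called higher, beside 2.66% of all genes, and 2 were called lower (F3 and TFPI2), beside 5.36%. There, 6 members passed by adjusted p alone, beside 34.8%. The median log2 fold change of the members was 0.50 in GSCs against U87, -0.30 in Diff against U87 and -0.52 in Diff against GSCs, where the medians over all tested genes were 0.02, -0.04 and -0.06. The 3 comparisons share libraries and are not independent of one another. The members were chosen with earlier results known, so the shares over all genes stand beside these counts as description only.

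**Figure D1:**
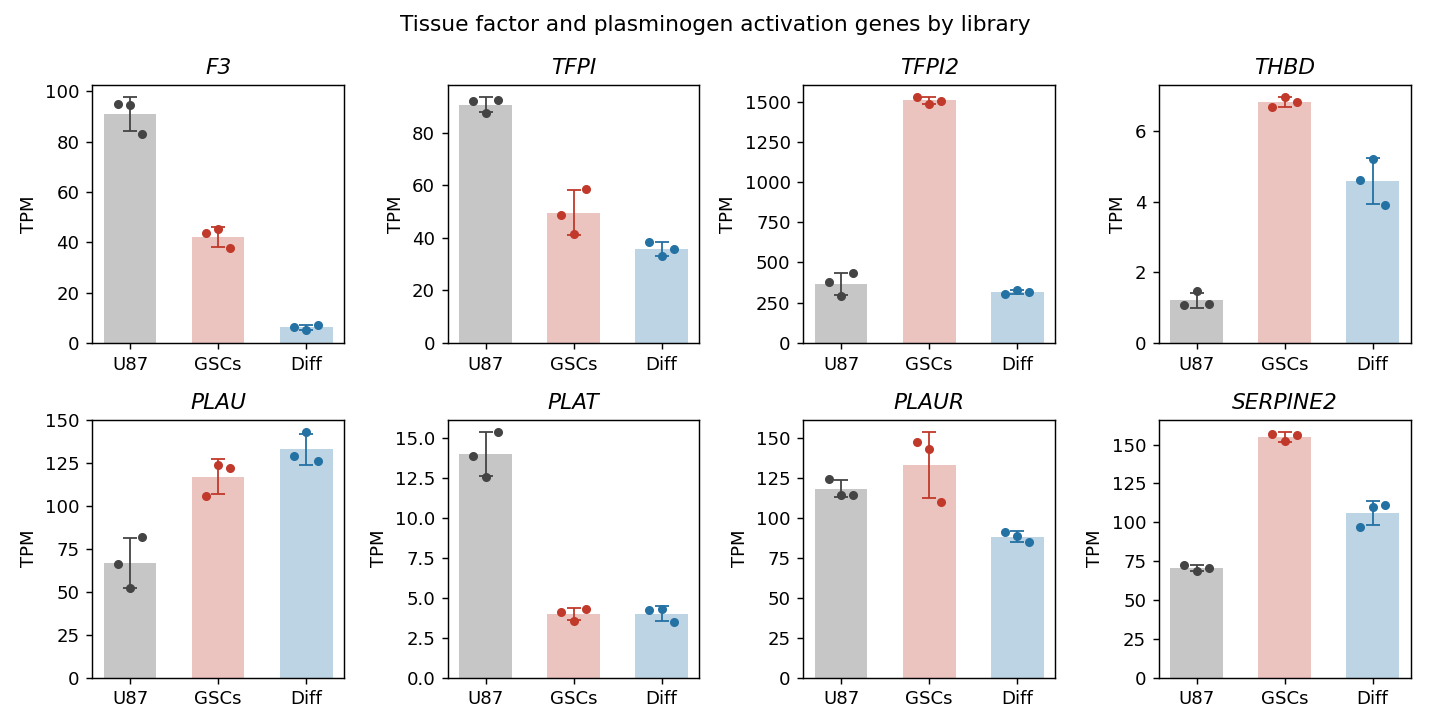
Levels of the 8 members in TPM on a linear axis, 1 panel per gene. Points are single libraries, bars stand at the mean of each line's 3 libraries and whiskers give the SD. F3 steps down from U87 (83.1 to 94.9) through GSCs (37.6 to 45.2) to Diff (5.06 to 7.16), TFPI2 stands at 1487 to 1527 in GSCs and at 293 to 432 in the other lines, and PLAT lies at about 4 in both irradiated lines.

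F3 (ENSG00000117525.13, GRCh38 chr1:94529225-94541800, minus strand) stood at 94.9, 94.6 and 83.1 TPM in the U87 libraries. In GSCs it stood at 43.5, 45.2 and 37.6 TPM, and in Diff at 6.32, 5.06 and 7.16 TPM. The 3 lines did not overlap, with U87 highest and Diff lowest. The level was 2.16-fold lower in GSCs than in U87 (log2 fold change -1.09, SE 0.119, limma adjusted p = 8.57e-05) and 14.7-fold lower in Diff than in U87 (log2 fold change -3.69, limma adjusted p = 1.18e-07). Diff against GSCs had a log2 fold change of -2.59 (limma adjusted p = 2e-06). Ranked among all tested genes within each library, F3 had a mean percentile of 95 in U87, 87.2 in GSCs and 48.4 in Diff. A gene near the top of the range in the parental line was thus at a middling level in Diff. F3 shares no exon bases with another gene of the annotation.

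The start region of F3 is shown because F3 had the widest range of the 8 members across the lines. The bases before the start were taken from RefSeq (GRCh38.p14) for 6 members, F3, TFPI, TFPI2, PLAU, PLAUR and SERPINE2. Of these, 2 (PLAU and SERPINE2) had more than 1 listed start. THBD had no entry there, and PLAT was not searched. The 250 bases before each start were searched on both strands for the letters TATAAA of the core promoter, the AP-1 letters TGACTCA, the SP1 letters GGGCGG and the kappa B consensus. Of 35116 RefSeq promoters of that length, 10.7% held TATAAA, 4.2% TGACTCA, 42.6% GGGCGG and 5.21% the kappa B consensus. In F3, TATAAA was found once, beginning 28 bases before the start on the minus strand of the window, TGACTCA once at 210 bases and GGGCGG 4 times, at 137, 104, 78 and 65 bases. The stretch below runs from 250 to 42 bases before the start, at chr1:94541801-94542009 on the minus strand, outside annotated exons, with the AP-1 and SP1 letters in capitals as they read on this strand.
F3 upstream: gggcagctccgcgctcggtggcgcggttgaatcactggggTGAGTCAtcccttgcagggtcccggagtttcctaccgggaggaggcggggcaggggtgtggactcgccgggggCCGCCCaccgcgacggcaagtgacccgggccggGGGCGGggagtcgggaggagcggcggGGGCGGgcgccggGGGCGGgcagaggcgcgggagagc

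Among the members searched, the same AP-1 letters were present before 1 other, PLAUR, 186 bases from its start, and a kappa B consensus only before TFPI2, at 152 bases. These are shown in 30 bases each, with the motif in capitals, at chr1:94541950-94541979 for F3, chr19:43670336-43670365 for PLAUR and chr7:93890886-93890915 for TFPI2, all on the minus strand.
F3 AP-1: atcactggggTGAGTCAtcccttgcagggt
PLAUR AP-1: cacaactccaTGAGTCAgggccgagccagc
TFPI2 kappa B: tcaacttggcGGGGAATTCCtctccctctt
None of the 4 motifs was found before TFPI, and GGGCGG was found before TFPI2, before the second listed start of PLAU and before both listed starts of SERPINE2. A match to letters is a description and not a bound site. Sites that depart from these letters are missed by the search, so a motif not found here may still have a variant form.

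TFPI (ENSG00000003436.15, chr2:187464230-187565760, minus strand), the inhibitor of the tissue factor and factor VII complex, stood at 92, 87.3 and 92.5 TPM in U87. It stood at 48.7, 41.6 and 58.5 TPM in GSCs and at 38.5, 33.2 and 35.8 TPM in Diff. U87 was above every library of both other lines, and GSCs were above Diff without overlap. Diff was called lower than U87 (log2 fold change -1.32, limma adjusted p = 2.75e-05). The difference of GSCs from U87 was -0.87 (SE 0.113, limma adjusted p = 0.000248), past the p threshold and short of the fold limit. Between Diff and GSCs it was -0.45 (limma adjusted p = 0.015), and without Diff replicate 2 it was -0.39 with an adjusted p of 0.0565.

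TFPI2 (ENSG00000105825.12, chr7:93885396-93890991, minus strand), a relative of TFPI that inhibits plasmin and other matrix proteases and only weakly the tissue factor complex, was the most abundant of the 8 members in every line. It stood at 377, 293 and 432 TPM in U87, at 1527, 1487 and 1506 TPM in GSCs and at 303, 326 and 319 TPM in Diff. GSCs were far above both other lines, and U87 and Diff overlapped. The mean was 4.11-fold higher in GSCs than in U87 (log2 fold change 2.05, SE 0.121, limma adjusted p = 2.01e-06) and Diff was 4.77-fold lower than GSCs (log2 fold change -2.25, limma adjusted p = 4.31e-06). Between Diff and U87 the log2 fold change was -0.20 (95% interval -0.47 to 0.08, limma adjusted p = 0.236), and without U87 replicate 2, the lowest of that line, it was -0.35 with an adjusted p of 0.0068. The mean percentile of TFPI2 among all tested genes was 99.1 in U87 and Diff and 99.8 in GSCs. Of its exon bases, 4.59% lie opposite exons of other genes. Its divergent neighbour TFPI2-DT had mean levels of 0.481, 1.89 and 0.174 TPM in U87, GSCs and Diff and was not tested.

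THBD (ENSG00000178726.6, chr20:23045633-23049741, minus strand), the thrombin receptor of the protein C pathway, stood at 1.08, 1.46 and 1.1 TPM in U87. It stood at 6.69, 6.96 and 6.84 TPM in GSCs and at 4.63, 5.21 and 3.92 TPM in Diff. The 3 lines did not overlap, with U87 lowest and GSCs highest. GSCs were 5.62-fold higher than U87 (log2 fold change 1.83, SE 0.129, limma adjusted p = 5.95e-06) and Diff 3.78-fold higher (log2 fold change 1.33, limma adjusted p = 5.68e-05). Diff lay below GSCs by 0.49 on the log2 scale (limma adjusted p = 0.0173), a difference that was not called and had an adjusted p of 0.0667 without Diff replicate 3. THBD was the member of lowest level in U87, at a mean percentile of 10.6 among all tested genes, against 48.1 in GSCs and 41.2 in Diff.

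THBD, TFPI and PLAT are also products of endothelial cells, so 7 endothelial markers were examined. Against U87, THBD was higher in both irradiated lines. TFPI (log2 fold change -0.87 in GSCs and -1.32 in Diff) and PLAT (-1.59 and -1.58) were lower. Their summed level was 12.2 to 14.7 TPM in U87, 34.4 to 40.1 TPM in GSCs and 14.6 to 18.5 TPM in Diff, and none was at 0 in all libraries of a line. KDR (5.97 ± 0.338 TPM in U87, 17.3 ± 1.78 in GSCs and 9.56 ± 1.23 in Diff, SD, n = 3) and VWF were called higher in GSCs than in U87. PECAM1 stood at 2.77 ± 0.935, 6.25 ± 0.868 and 2.92 ± 0.738 TPM in U87, GSCs and Diff (SD, n = 3) and was not called. TEK stood at 2.41, 1.12 and 0.437 TPM and was called lower in Diff than in U87 (log2 fold change -1.24, limma adjusted p = 0.00114). In that comparison KDR (0.59, limma adjusted p = 0.00289) and VWF (0.85, limma adjusted p = 0.00116) were higher, both short of the fold limit. The cadherin CDH5 stayed under 0.5 TPM in every library, and CLDN5 had means under 1 TPM in every line. ERG was lower in GSCs, at 0.149 ± 0.064 TPM, than in U87, at 0.901 ± 0.125 TPM (SD, n = 3), and was not tested. In bulk RNA a change in the number of cells of a type and a change in RNA per cell cannot be told apart. The part of such cells in the THBD, TFPI and PLAT results was not tested. Leukocyte markers summed to 1.95 to 3.67 TPM over all 9 libraries. Platelet markers summed to 5.97 to 7.3 TPM in U87, 2.57 to 3.33 TPM in GSCs and 2.66 to 3.23 TPM in Diff, with PF4 listed at 0 in all 9 libraries. Most of each sum was 1 of the 4 markers, GP1BA, with means of 6.63, 2.65 and 2.93 TPM in U87, GSCs and Diff.

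PLAU (ENSG00000122861.15, chr10:73909177-73917497, plus strand), the urokinase-type activator used in cell migration, stood at 66, 52.4 and 81.7 TPM in U87. It stood at 106, 124 and 122 TPM in GSCs and at 129, 143 and 126 TPM in Diff. Every library of both irradiated lines was above every U87 library, and the U87 libraries were the most scattered, with a coefficient of variation of 22% against 8.67% in GSCs and 6.82% in Diff. In GSCs the log2 fold change against U87 was 0.83 (SE 0.144, limma adjusted p = 0.00144), short of the fold limit. In Diff it was 1.003 (limma adjusted p = 0.000618), just inside the limit. It fell to 0.95 without Diff replicate 2 and to 0.84 without U87 replicate 2, and the call was then lost. Diff and GSCs did not overlap, but the difference of 0.18 (95% interval -0.15 to 0.51) had a limma adjusted p of 0.386. Of the PLAU exon bases, 31.1% lie opposite exons of C10orf55, whose mean levels were 1.01, 0.721 and 1.5 TPM in U87, GSCs and Diff.

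PLAT (ENSG00000104368.17, chr8:42175233-42207724, minus strand), the tissue-type activator that works on fibrin and is also active in brain, stood at 13.9, 12.6 and 15.4 TPM in U87. It stood at 4.09, 3.58 and 4.28 TPM in GSCs and at 4.26, 4.32 and 3.46 TPM in Diff. U87 was above every library of the other lines, which overlapped. PLAT was 3.51-fold lower in GSCs (log2 fold change -1.59, SE 0.118, limma adjusted p = 8.17e-06) and 3.48-fold lower in Diff (log2 fold change -1.58, limma adjusted p = 1.23e-05) than in U87. The difference between Diff and GSCs was 0.01 on the log2 scale (95% interval -0.26 to 0.27, limma adjusted p = 0.977).

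PLAUR (ENSG00000011422.11, chr19:43646095-43670547, minus strand), the receptor that holds urokinase at the cell surface, stood at 124, 114 and 114 TPM in U87. It stood at 147, 143 and 110 TPM in GSCs and at 91.3, 88.2 and 84.8 TPM in Diff. Diff was below every library of both other lines, and U87 and GSCs overlapped because GSCs replicate 3 lay below all U87 libraries. The log2 fold change was -0.58 in Diff against GSCs (SE 0.104, limma adjusted p = 0.00278) and -0.41 in Diff against U87 (limma adjusted p = 0.0127), both short of the fold limit. In GSCs against U87 it was 0.17 (95% interval -0.07 to 0.41, limma adjusted p = 0.209). Without GSCs replicate 3 it was 0.30 with an adjusted p of 0.00193.

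SERPINE2 (ENSG00000135919.12, chr2:223975112-224039319, minus strand), also named protease nexin, inhibits thrombin, urokinase and tissue-type activator at the cell surface. It stood at 72.5, 68.7 and 70.8 TPM in U87, at 157, 152 and 156 TPM in GSCs and at 97.1, 110 and 111 TPM in Diff. The 3 lines did not overlap, with GSCs highest and U87 lowest. GSCs were 2.19-fold higher than U87 (log2 fold change 1.12, SE 0.0597, limma adjusted p = 1.13e-06). Diff differed from U87 by 0.58 (limma adjusted p = 8.48e-05) and from GSCs by -0.55 (limma adjusted p = 0.000208), both short of the fold limit.

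**Figure D2:**
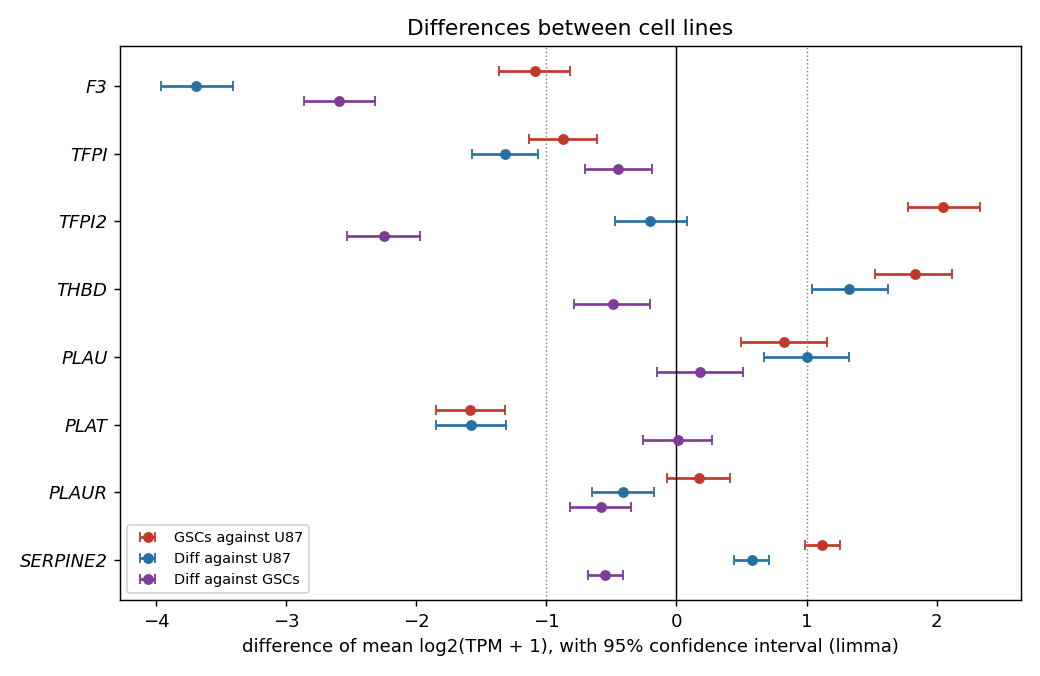
Log2 fold change of each member in the 3 comparisons, on the log2(TPM + 1) scale, with bars for the 95% interval of the limma fit and dotted lines at the fold limit of 1. F3 lies furthest from 0, at -3.69 in Diff against U87, while the intervals of PLAT (0.01) and PLAU (0.18) in Diff against GSCs, TFPI2 in Diff against U87 (-0.20) and PLAUR in GSCs against U87 (0.17) include 0.

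Balances between activators and inhibitors were computed as TPM ratios within a library, which do not depend on the library total. A transcript ratio is not a ratio of protein or activity. The smallest p that a two-sided exact permutation test of 3 against 3 libraries can give is 0.1, and after Benjamini-Hochberg adjustment over the 15 ratio tests that value became 0.136, so no ratio could pass 0.05. The ratio of F3 to TFPI was 1.03, 1.08 and 0.899 in U87, 0.894, 1.09 and 0.643 in GSCs and 0.164, 0.152 and 0.2 in Diff. U87 and GSCs overlapped (exact permutation p = 0.5), and Diff lay below both (exact permutation p = 0.1 each), 5.86-fold lower than U87 as a geometric mean. With TFPI2 added to the denominator, the geometric mean ratio was 0.2 in U87, 0.027 in GSCs and 0.0174 in Diff, with no overlap between any of the lines (exact permutation p = 0.1 each). TFPI2, only a weak inhibitor of the tissue factor complex, was the larger part of that denominator, with a mean of 1507 TPM in GSCs against 49.6 TPM for TFPI.

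The ratio of PLAU to PLAT was 4.74, 4.15 and 5.31 in U87, 25.8, 34.6 and 28.6 in GSCs and 30.2, 33.1 and 36.5 in Diff. Both irradiated lines were above U87 without overlap (exact permutation p = 0.1 each), by 6.26-fold in GSCs and 7.05-fold in Diff, and overlapped one another (exact permutation p = 0.3). The ratio of the summed PLAU and PLAT to SERPINE2 had geometric means of 1.13, 0.781 and 1.29 in U87, GSCs and Diff, with GSCs below both other lines (exact permutation p = 0.1 each) and U87 and Diff overlapping (exact permutation p = 0.4).

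The surrounding pathway was followed in 52 further genes, of which 33 had a mean over 1 TPM and were tested. This list too was chosen with earlier results of these data known. In GSCs against U87, 5 were called higher and 7 lower, beside 9.52% and 7.53% of all tested genes, with a median of -0.19 on the log2 scale. In Diff against U87, 3 were called higher and 5 lower (median -0.26), beside 5.92% and 6.36%, and in Diff against GSCs 2 were called higher and 4 lower (median -0.08), beside 2.66% and 5.36%. Most of the blood-borne part of the system lay below the filter. Of 16 coagulation factors 3 were tested, plasminogen (PLG) was listed at 0 in all 9 libraries, and F7, the ligand of tissue factor, was at 0 to 0.397 TPM and was not tested. F10, which the tissue factor complex activates, was called higher in both irradiated lines, with 0.627 ± 0.0495 TPM in U87, 3.6 ± 0.724 in GSCs and 2.54 ± 0.773 in Diff (SD, n = 3). Its call in Diff against U87 (log2 fold change 1.10) was lost without Diff replicate 1 (0.94). VWF, a platelet adhesion protein, stood at 0.527 ± 0.213 TPM in U87, 11.4 ± 0.566 in GSCs and 1.74 ± 0.121 in Diff (SD, n = 3), called higher in GSCs than in U87 (log2 fold change 3.03) and lower in Diff than in GSCs (-2.18), by limma.

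Among plasminogen and its receptors, 6 of 7 genes were tested. ENO1, a glycolytic enzyme that also binds plasminogen, was called lower in GSCs (log2 fold change -1.22) and in Diff (-1.08) than in U87. The annexin ANXA2 and its partner S100A10, which gather plasminogen and tissue-type activator at the surface, had log2 fold changes of -0.69 and -0.94 in GSCs against U87 and of -0.59 and -0.66 in Diff against U87, each with a limma adjusted p under the threshold and short of the fold limit. Without U87 replicate 2, S100A10 in GSCs against U87 was at -1.01, past the limit. LRP1, the endocytic receptor that clears activator and inhibitor complexes, was 876 ± 110 TPM in GSCs, above U87 at 429 ± 26.8 TPM and Diff at 344 ± 6.26 TPM (SD, n = 3), and was called in both comparisons with GSCs. Its log2 fold change in GSCs against U87, 1.02, fell under the limit without GSCs replicate 2 (0.94), without U87 replicate 3 (0.97), under quantile normalization (0.97) and under median-ratio scaling (1.00). Among 7 inhibitors of the activators and of plasmin, 5 were tested. The protease trap A2M was called higher in GSCs (2.4 to 3.56 TPM) than in U87 (0.191 to 0.321 TPM) and lower in Diff (0 to 0.0552 TPM) than in GSCs. A2M passed the filter only through its GSCs libraries, since all U87 and Diff libraries were under 1 TPM. Its calls thus describe a gene that was tested because GSCs were high. SERPINI1, neuroserpin, an inhibitor of tissue-type activator, was called lower in Diff than in GSCs (log2 fold change -1.13), with GSCs replicate 3 at 6.41 TPM and the other GSCs libraries at 2.18 and 2.89 TPM. Without GSCs replicate 3 it was at -0.77 and not called.

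In the protein C pathway and other anticoagulants, 6 of 8 genes were tested. PROCR, the protein C receptor, stood at 28.5, 33.5 and 31.7 TPM in U87, GSCs and Diff and was not called. PROS1, the cofactor of protein C, was called higher in Diff (43.8 ± 3.04 TPM) than in U87 (19.4 ± 2.34 TPM, SD, n = 3), and GAS6, a related receptor ligand, was called higher in Diff than in GSCs (log2 fold change 1.08), a call lost without GSCs replicate 1 (0.95). SERPIND1, heparin cofactor, an inhibitor of thrombin, was called lower in GSCs (-1.96) and in Diff (-1.25) than in U87. Of the thrombin and protease receptors, F2R stood at 49.2, 35.9 and 39.8 TPM and F2RL1 at 8.99, 7.93 and 7.81 TPM in U87, GSCs and Diff, neither called, while F2RL2 was called lower in both irradiated lines, from 6.89 ± 0.528 TPM in U87 to 1.13 ± 0.451 in GSCs and 0.617 ± 0.161 in Diff (SD, n = 3). Of 4 vitamin K genes, NQO1, a quinone reductase, was called lower in GSCs than in U87 (-1.20).

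All 6 partners of the urokinase receptor and adhesion genes were tested, and they moved in different directions. The integrin subunit ITGB3 was called higher in GSCs (242 ± 19.2 TPM) and Diff (162 ± 13.2 TPM) than in U87 (68.2 ± 2.06 TPM, SD, n = 3). ITGB1 was called lower in both (log2 fold changes -1.31 and -1.70). ITGAV, which pairs with ITGB3 in the vitronectin receptor, was called lower in GSCs than in U87 (-1.23) and higher in Diff than in GSCs (1.43). FPR1, a chemotactic peptide receptor that interacts with the urokinase receptor, stood at 13.7, 11.3 and 16.8 TPM in U87, at 0.112, 0 and 0.0644 TPM in GSCs and at 0.45, 0.37 and 0.374 TPM in Diff, called lower in both. FPR1 passed the filter only through its U87 libraries, so these calls describe a gene that was tested because U87 was high.

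**Figure D3:**
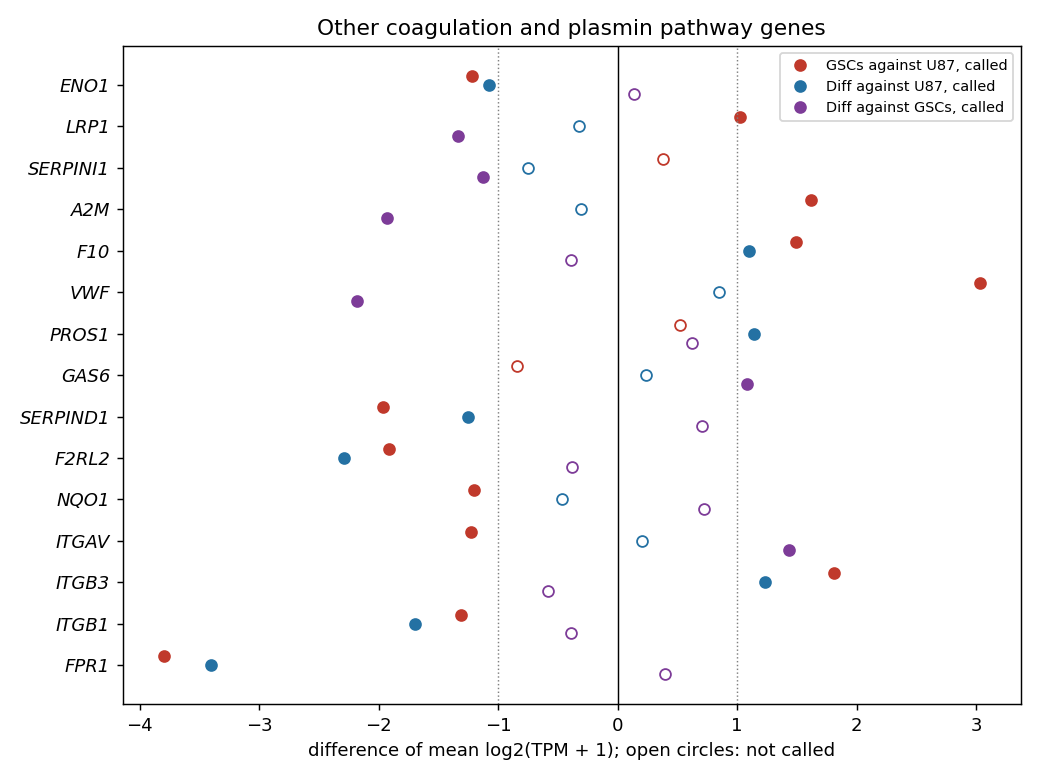
Log2 fold changes of the tested pathway genes called in at least 1 comparison, on the log2(TPM + 1) scale, with 1 circle per comparison (filled where called, open where not) and dotted lines at the fold limit of 1. FPR1 lies furthest below 0 (-3.80 in GSCs against U87) and VWF furthest above (3.03).

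To see whether members moved with their surroundings on the chromosome, the 10 tested genes on each side were taken for each member. Around F3 the median over the neighbours in Diff against U87 was -0.15 on the log2 scale (range -1.33 to 0.89), all above the -3.69 of F3. In the other comparisons F3 lay within the range of its neighbours, which began at -1.73 in GSCs against U87 and at -2.62 in Diff against GSCs. Around TFPI the median was 0.19 in Diff against U87, with the lowest neighbour at -0.87 and TFPI at -1.32. There 17 of 20 neighbours were above 0, beside 10742 of all 22909 tested genes. TFPI was within the range in GSCs against U87 (-0.87, lowest neighbour -1.32) and in Diff against GSCs (-0.45, lowest neighbour -0.46). Around TFPI2 the median was 0.41 in GSCs against U87 with 15 of 20 neighbours above 0, beside 11693 of all 22909 tested genes. The highest was at 1.81, below TFPI2 at 2.05. In Diff against U87, 15 of 20 neighbours were also above 0 (median 0.36), with TFPI2 at -0.20. In Diff against GSCs TFPI2, at -2.25, was below its lowest neighbour at -1.83. Around THBD the neighbours in GSCs against U87 had a median of -0.10 and reached 1.78, below THBD at 1.83, while in Diff against U87 THBD, at 1.33, was within a range that ended at 2.04. Around PLAT the median in GSCs against U87 was -0.05 and the lowest neighbour was at -1.43, above PLAT at -1.59. Of the 20 neighbours 4 were called lower there, beside 7.53% of all tested genes. In Diff against U87 the lowest neighbour was at -1.44, above PLAT at -1.58, and 2 of 20 were called lower, beside 6.36%. SERPINE2, at 1.12 in GSCs against U87, was above all its neighbours, whose highest value was 0.88, and in Diff against U87, at 0.58, it was within their range, which ended at 1.05. PLAU in Diff against U87, at 1.00, was within its neighbours' range, which ended at 1.13. PLAUR was within the range of its neighbours in every comparison.

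Genes with the most similar pattern were searched among 9620 protein-coding genes with a mean over 5 TPM (9621 for THBD), by Pearson r over the 9 libraries on the log2 scale. With 3 lines of 3 libraries each, such an r is set mainly by the means of the lines and is given without a test. The closest to F3 were AMPD3 (r = 0.998) and KCNMA1 (0.997), to TFPI ZEB1 (0.999) and MRPS6 (0.994), and to TFPI2 PRDM8 (0.996) and IGFBP4 (0.993). The closest to THBD were DVL2 (0.994) and ASAP3 (0.993), to PLAU BSDC1 (0.987) and PRPS1 (0.979), and to PLAT INKA2 (0.996) and APCDD1L (0.995). For PLAUR they were LAMB2 (0.986) and MARK4 (0.982) and for SERPINE2 ADCYAP1R1 and METTL7B (0.993 each). The ranges differed where the shapes were alike. AMPD3 went from 32.8 TPM in U87 through 23 in GSCs to 11.2 in Diff, a narrower span than that of F3, and APCDD1L went from 137 TPM in U87 to 23.3 in GSCs and 22.7 in Diff, a wider one than that of PLAT.

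Each library summed to 1000000 TPM and listed 31832 to 33079 genes above 0. The noncoding RNA RN7SL1 held 8.77% to 9.79% of TPM in U87, 5.73% to 7.84% in GSCs and 6.67% to 8.54% in Diff, with U87 above both other lines. Mitochondrial genes held 25.9% to 28.8% in U87, 27.9% to 30.8% in GSCs and 30.7% to 31.8% in Diff, so that U87 and Diff did not overlap. With both sets of genes taken out of the total, the same number of members was called in each comparison. Of 8 markers of glioblastoma and the neural stem state, 5 were over 1 TPM in each line: VIM, CD44, NES and TUBB3 in all lines, with GFAP in U87 and FABP7 in GSCs and Diff. The summed level of the 8 markers was 2049 to 2110 TPM in U87, 1526 to 1813 TPM in GSCs and 903 to 960 TPM in Diff. In Diff against U87, VIM (log2 fold change -1.41) and NES (-1.23) were called lower and FABP7 (1.16) higher. The stem cell markers SOX2 and PROM1 were under 1 TPM in every library, with means of 0.879 ± 0.101 and 0.507 ± 0.113 TPM in GSCs and of 0.0383 ± 0.0663 and 0.171 ± 0.0599 TPM in U87 (SD, n = 3).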

How the data were processed

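The authors sequenced RNA from U87, GSCs and Diff, 3 libraries of each. The sample records describe removal of ribosomal RNA and a directional kit, whereas the methods of the study describe enrichment on oligo(dT) beads. The submitters' processing notes name FastQC 0.11.9, Trimmomatic 0.39, HISAT2 2.2.1, featureCounts 2.0.5, R 4.2.0 and GRCh38. The annotation and the strand setting of the counting are not given in the sources used here. The authors deposited 1 table of log2(TPM + 1) values for 60606 genes. TPM keeps no depth, so no counting error was computed and precision rests on the 3 libraries per line.

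Genes with a mean TPM over 1 over the 9 libraries (22909) entered 1 linear model with the line as its term, fitted by limma (version 3.58.1, under R 4.3.3) with a mean-variance trend. Benjamini-Hochberg adjustment was applied within each comparison over all tested genes, and fold changes are on the log2(TPM + 1) scale, which understates the change of low genes. Fold values given as N-fold are ratios of mean TPM. Ratios within a library were compared by two-sided exact permutation tests. In a simulated table of 22909 genes, 200 were shifted by a log2 value of 2 in GSCs against U87, and limma recovered 177 of them, with 6 false calls, and made 0 calls in the comparison without change. The simulated noise was normal and independent between libraries, and far fewer genes differed than in the data. The check therefore does not give the rate of false calls in these data. Ratios, counts and plots used Python 3.11.15 with numpy 2.4.6, pandas 2.3.3 and matplotlib 3.10.9. Coordinates are those of GENCODE 29, and promoter bases those of RefSeq.

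The members, the pathway list and the markers were chosen with earlier results of these data known. Named were all members, the pathway genes called in any comparison, PLG, ANXA2, S100A10, PROCR, F2R, F2RL1, F7 and F10 whatever their values, the 2 genes most like each member, and markers mainly as counts and ranges. The individual markers were named after their values were seen, as were C10orf55 and TFPI2-DT for their position. Of the pathway list and the ratio tests, 1 gene and the ratio that uses it enter the counts and the adjustment but are not reported here. Alternatives covered the pseudocount, the filter, the scaling, the samples in the fit, the thresholds, the replicate numbers and the omission of each library.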

Additional observations from a re-analysis of the deposited data

How the results depend on the processing

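Of the members, 5 were called in GSCs against U87, 5 in Diff against U87 and 2 in Diff against GSCs. With no fold limit these counts were 7, 7 and 6, beside 48.6%, 39.4% and 34.8% of all tested genes. Of the 33 tested genes of the pathway list, 12, 8 and 6 were called in the 3 comparisons. With no fold limit these counts were 26, 19 and 18, beside the same shares of all tested genes. With a filter at a mean TPM over 5, under which fewer genes are tested, they were 7, 5 and 2. With log2(TPM + 0.1) they were 14, 12 and 8, and the lower calls in Diff against U87 went from 5 to 8. The shares over all genes in these 2 settings are not given here, so the shifts cannot be set against them. THBD has a mean under 5 TPM and gave no value under the filter at a mean TPM over 5. Under that filter 4 members were called in GSCs against U87 and 4 in Diff against U87. The PLAT difference between Diff and GSCs ranged from -0.05 to 0.09 when single libraries were left out, and turned sign without Diff replicate 1 (-0.03), Diff replicate 2 (-0.04) or GSCs replicate 2 (-0.05). PLAU in Diff against U87 lost its call without Diff replicate 2 (0.95) or U87 replicate 2 (0.84). Under quantile normalization the THBD difference of Diff from GSCs was -0.35 with a limma adjusted p of 0.0741, against 0.0173 as deposited (range over its alternatives 0.00962 to 0.0741). The cause was not tested.

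Other scalings moved the median of all genes by less than 0.1 on the log2 scale. Calls over all genes in Diff against U87 were 1356 higher and 1456 lower, 1427 and 1359 under quantile normalization, and 1594 and 1520 without RN7SL1 and mitochondrial genes. Equal replicate numbers marked no pairs, since none of 9 same-numbered pairs had a correlation of deviations over 0.1 (-0.0416 to 0.0489). With the replicate block, all 30 results from the fit kept their direction and side of the threshold, for example F3 in Diff against U87 at -3.69 (limma adjusted p = 8.48e-06). TPM keeps no depth, so counting error at low levels, such as THBD in U87, could not be given.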
